A study of Mus musculus with 24 samples.

Results

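The m6A peaks described here are those of control melanoma cells that had no counterpart after the RNA demethylase Fto was knocked down and none after treatment with the compound Dac51. A peak of the shNC list was taken when no peak of the shFto list and no peak of the Dac51 list covered even 1 base of its blocks on the same strand. The peaks were thus chosen by the authors' peak calls in the 3 lists, and the shNC antibody and input reads behind those calls are the values the choice used. The rule took 763 of the 8479 shNC peaks (9.0%), out of 29140 peaks in the 3 lists together. The cells were B16-OVA, a mouse melanoma line of C57BL/6 background that carries ovalbumin as a model antigen, and all of them were kept under puromycin. The shNC cells carried a control hairpin and were treated with DMSO. The shFto cells carried a hairpin against Fto and were treated with DMSO. The Dac51 cells were shNC cells treated with 5 µM Dac51 for 48 h, and Dac51 is known here by its code name only. Each condition had 1 antibody library and 1 input library, so no peak has a replicate and presence in 1 list has no test. The labels name 2 hairpins against Fto for the T cell co-cultures but do not say which one the shFto cells of the m6A and tumour RNA libraries carried.

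N6-methyladenosine (m6A) is the commonest internal mark of messenger RNA. A nuclear writer complex with METTL3, METTL14 and WTAP places it within a short sequence context known as DRACH, often near stop codons and in long exons, and reader proteins such as the YTHDF and IGF2BP families bind it. FTO is one of the demethylases that remove it. In m6A-seq, fragmented RNA is pulled down with an antibody against the mark, and a peak is a stretch where the antibody library holds more reads than the input.

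Only the bases at annotated starts could be read for these peaks. The sequences shown are therefore stretches of shNC-only peaks that lie in RefSeq promoter windows (mouse GRCm38.p6, the mm10 assembly). The windows run from 250 bases before to 50 bases after a start. The 6 stretches come from 6 of the 8 peaks that hold a DRACH word in such a window. A DRACH word is 1 of the 18 words made of A, G or T, then AAC or GAC, then A, C or T. Each DRACH word within a stretch is in capitals, read on the strand of the gene. The Ice1 stretch does not lie at the start of Ice1. Its peak is 22445 nt into that gene, in the window of the predicted gene Gm40996. An annotated start need not be the start of the gene span. The Fignl2 peak began 24185 nt into its gene span, at another annotated start of Fignl2. The Rusc2 and Ccm2 peaks began 4840 and 30 nt into theirs, and the stretches lay further on, at other annotated starts of these genes. The Coq3 and Otulin peaks began 88 and 284 nt into theirs, and their windows too belong to annotated starts inside the gene span. The words of Coq3 (-71 nt) and Ice1 (-59 and -49 nt) lie before the start of their window, and the other words after it.
Coq3, chr4:21879770-21879796, plus strand: agcctcctcgccTAACTtcacggtcgg
Rusc2, chr4:43406534-43406551, plus strand: gcagcagcaagaAGACAg
Ccm2, chr11:6560195-6560223, plus strand: tcagtagattacAAACAtacctactgctg
Ice1 (window of the Gm40996 start), chr13:70614970-70614986, minus strand: tgAGACAcatcgGGACA
Otulin, chr15:27630666-27630693, minus strand: aagcgctctgcGGACCtcgcggggtgcg
Fignl2, chr15:101054376-101054399, minus strand: atgcactGGACAccgGAACAcgcc
The peaks around these stretches had authors' fold enrichments of 1.83 (Coq3), 2.84 (Rusc2), 1.83 (Ccm2), 2.11 (Ice1), 2.52 (Otulin) and 11.1 (Fignl2). In all, 18 shNC-only peaks overlapped a promoter window and 8 of them held a DRACH word in the overlap. Annotated starts were on hand for the chromosomes of 731 of the 763 peaks. For 8 starts the first 50 transcribed bases lay whole within a shNC-only peak. A word was found in 5 of these 8 (62.5%), against 17871 of all 32851 annotated starts (54.4%). On the opposite strand a word stood in 1 of the 8, against 55.2% of all starts. The word GGACT stood in none of the 8, against 5.76% of all starts. The words overlap one another in sequence, a match describes letters and not a methylated base, and 8 windows are too few to set the shares apart.

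The peaks nearest to the limit of the rule were close to a peak of another list. The closest peak of another list lay 27 nt away for Cers1, 28 nt for Ufm1 and Zfp383, and 29 nt for Ano8 and BC025920. Just outside the rule were shNC peaks that shared a single base with another list, among them those of Alkbh4 and Ank. Of the 763 peaks, 76 had a peak of another list within 100 nt and 280 (36.7%) within 1000 nt, while 189 (24.8%) had none within 50000 nt. A stricter threshold on the shNC list lowered the share of peaks found in that list only. It was 244 of 7019 (3.48%) among peaks at a log10 false discovery rate of -3 or less, and 295 of 5064 (5.83%) among peaks at a fold enrichment of 4 or more. The lists differ in length, with 10811 peaks for shFto and 9850 for Dac51, and the peaks found in 1 list alone numbered 2049 (19.0%) and 1191 (12.1%) there.

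The shNC-only peaks were short. Their median length was 91 nt, with an interquartile range of 61 to 150 nt, against 328 nt for the 7087 shNC peaks overlapped by both other lists. A length of 100 nt or less was found for 429 of the 763 (56.2%) and for 387 of the 7087 (5.46%). The labels give a fragment length of about 100 nt for the RNA before the pull-down. The median fold enrichment, a value the authors' peak caller gives per peak, was 2.7 (interquartile range 1.85 to 8.89, extremes 1.06 and 37.8) against 5.41 for the shared peaks. The median log10 false discovery rate was -2.5 against -17.5, and 519 of the 763 (68.0%) stood above -3. These values are those of the shNC list from which the peaks were taken, so they describe the set and are not tested. The plot of fold enrichment and length shows that the fold enrichments of the shNC-only peaks formed 2 groups.

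**Figure D1:**
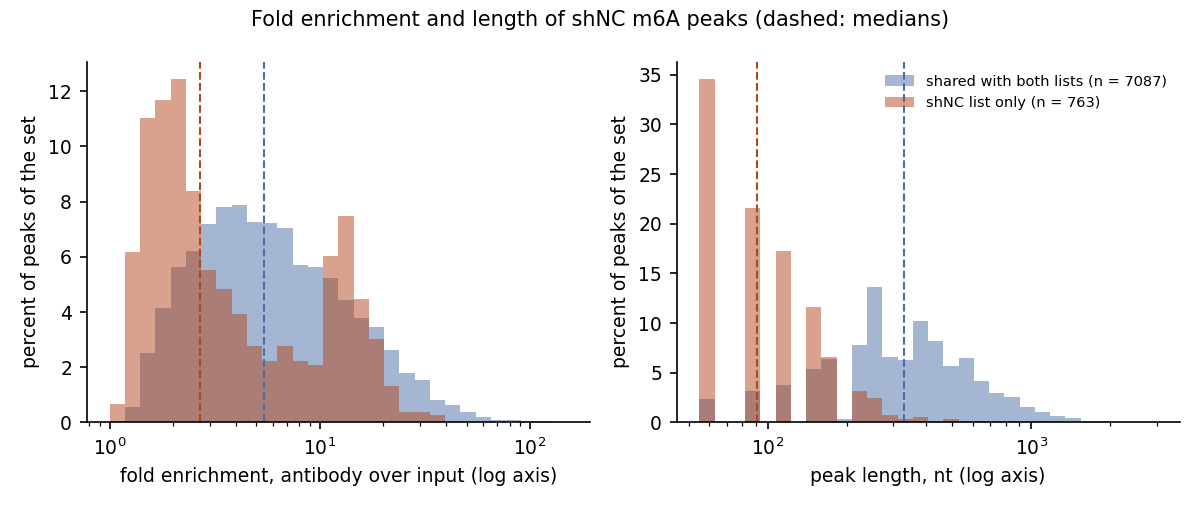
Histograms of the authors' fold enrichment (left, log axis) and of peak length in nt (right, log axis) as a percent of each set, for the 763 shNC-only peaks and the 7087 shNC peaks shared with both other lists, with medians dashed. The shNC-only peaks sit at shorter lengths (median 91 against 328 nt) and are spread over a low group of fold enrichments and a smaller group between about 11 and 20.

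The low group was the larger one. A fold enrichment below 2 was found for 243 shNC-only peaks and one of 2 to 4 for 225, while 91 lay between 4 and 8 and 204 at 8 or more. The 2 groups differed in how many RNA-seq reads their genes had. The mean count over the 3 shNC RNA libraries, which depends on transcript length as well as level, had a median of 1660 for the hosts of peaks below 2-fold and 663 for those of 2 to 4. It was 170 for the hosts of peaks between 4 and 8 and 58 for those at 8 or more. Over the 763 peaks the Spearman correlation of fold enrichment with this count was -0.73, a description over peaks that share 1 library. All 763 had passed the authors' peak call, which can itself tie fold enrichment to read number, and the shared peaks were not set beside them. Of the 204 peaks at 8 or more, 53 lay in genes with a mean under 10 counts. Their fold enrichments took 29 different values, a median step of 1.1 apart, and 165 of the 204 (80.9%) had a pair of fold enrichment and p-value that 5 or more shNC peaks carried. Among the shared peaks at 8 or more the same was true of 113 of 2425 (4.66%). The pair of 14.4 and a log10 p of -3.33, for example, stood on 51 shNC peaks, of which 25 were shNC-only.

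**Figure D2:**
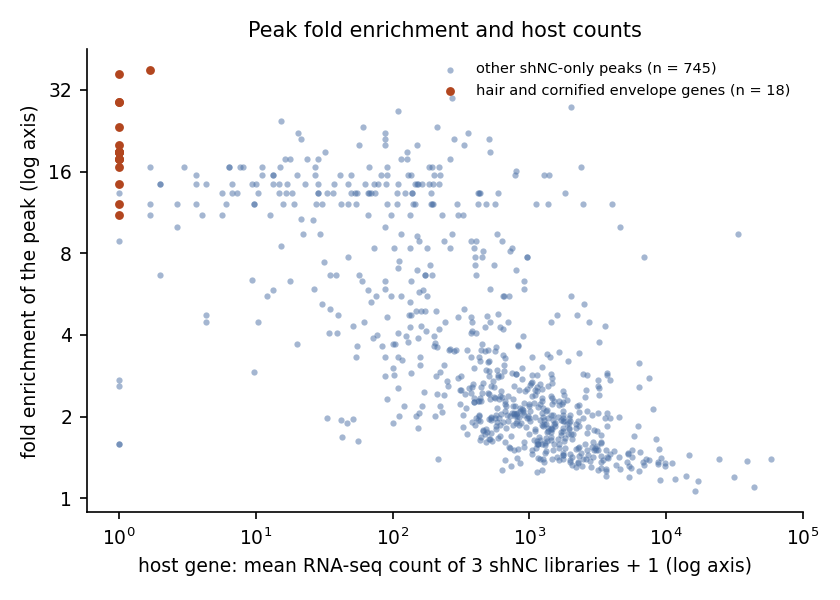
Fold enrichment of each of the 763 shNC-only peaks (vertical log axis) against the mean RNA-seq count of its gene over the 3 shNC libraries plus 1 (horizontal log axis). Fold enrichment falls as the count rises (Spearman -0.73), and the 18 peaks of hair and cornified envelope genes, marked apart, stand at the left edge with fold enrichments from 11.1 to 37.8.

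Among the highest fold enrichments were those of genes of hair and of the cornified epidermis. These tissues build tough sheaths from keratin filaments and from proteins that transglutaminases cross-link. Of 169 genes of this kind, gathered after the peaks were seen, 7 held shNC peaks, 18 in all, and all 18 were shNC-only. Tchh, which encodes trichohyalin of the inner root sheath, held 8 peaks, at fold enrichments from 11.1 to 36.7. The strongest covered 807 nt (chr3:93444748-93445554, plus strand), 2418 nt into the gene. Its neighbour Tchhl1 held 2, at 16.7 and 12.2. Krt17, a keratin of hair follicles and of injured epidermis, had the highest fold enrichment of all shNC-only peaks, 37.8, over 1156 nt in 8 blocks (chr11:100256483-100260900, minus strand). That peak began 129 nt from the start of the gene span and ended 268 nt from its end. Krt75, a keratin of the companion layer of the follicle, held 3 peaks (28.9, 20 and 14.4), and the hair keratin Krt84 held 1 (17.8). Ivl, which encodes involucrin of the cornified envelope, held 2 (28.9 and 17.8). Tgm3, the transglutaminase that cross-links trichohyalin, held 1 (18.9).

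None of the 7 genes held a peak in the shFto or the Dac51 list. Within the 169 genes the Dac51 list had no peak and the shFto list had 2, in Padi1 and Sfn. The RNA-seq libraries, which are not the RNA of the m6A libraries, held almost no reads of these genes. Tchh, Ivl, Krt75, Krt84 and Tgm3 had 0 counts in all 6 libraries. Krt17 had 0, 0 and 5 counts in the 3 shFto libraries and 1, 1 and 0 in the 3 shNC libraries, and Tchhl1 had 3, 0 and 1 in shFto and 0 in each shNC library. The summed level of the 169 genes was 17 to 18.4 CPM (read counts scaled to library size) in shFto and 32.1 to 35.8 CPM in shNC, and 144 of the genes had no count anywhere. Krt80, which held no peak, carried much of this sum, with 152, 91 and 160 counts in shFto and 321, 355 and 321 in shNC. Without Krt80, left out after its values were seen, the sum was 8.88 to 10.1 CPM in shFto and 10.2 to 13.6 CPM in shNC. In such bulk RNA, fewer cells of a type and less RNA per cell cannot be told apart. The general epithelial markers Epcam and Krt5 summed to 0.872 CPM or less in every library. Whether RNA from other cells took part in these peaks was not tested. Without the 18 peaks the set holds 745.

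**Figure D3:**
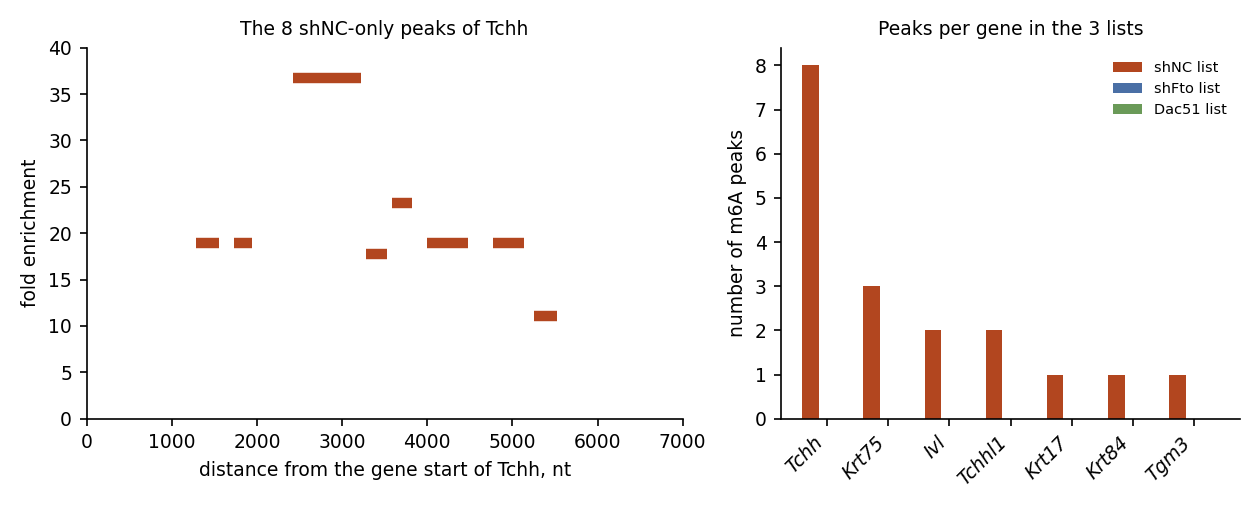
Left, the 8 shNC-only peaks of Tchh drawn as bars of their length against distance from the gene start in nt, at the height of their fold enrichment; right, the number of m6A peaks in each of the 3 lists for the 7 hair and cornified envelope genes with a shNC peak. Tchh carries 8 peaks in the shNC list, and the shFto and Dac51 bars are at 0 for all 7 genes.

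The other peaks of highest fold enrichment lay in genes with RNA-seq reads, and Bcl9, Adar, Trim45 and Rnf219 had further peaks that all 3 lists called. Bcl9, a coactivator of beta-catenin, held 2 shNC-only peaks, at 30.0 (chr3:97209280-97209460, minus strand) and 9.45. The shNC peak closest to the first had 8.52, and the shFto and Dac51 peaks that overlapped it had 14.9 and 17.8. Bcl9 RNA stood at 12.3, 12.6 and 14.8 CPM in the shFto RNA-seq libraries and 21.8, 17.5 and 15.4 CPM in the shNC ones, a log2 fold change of -0.45 (edgeR adjusted p = 0.0242) that lost its call without any of 3 libraries (adjusted p from 0.0552 to 0.171). Adar, the editing enzyme that converts adenosine to inosine in double-stranded RNA, had a peak of 27.8 (chr3:89752259-89752469, plus strand), 986 nt before the end of the gene span. Its 2 other shNC peaks, at 6.99 and 4.84, were also called in shFto and Dac51. The Adar RNA levels, 129, 117 and 123 CPM in shFto and 133, 141 and 131 CPM in shNC, did not overlap but missed the threshold (edgeR adjusted p = 0.196). Trim45, a ubiquitin ligase of the tripartite motif family, had 1 at 23.3. Zfp521, a zinc finger transcription factor, also had 1 at 23.3, and both other lists held peaks elsewhere in that gene. The nearest of these, a Dac51 peak of 16.2, was 118 nt away. Its RNA stood at 4.05, 3.4 and 3.9 CPM in shFto and 14.9, 16.8 and 9.83 CPM in shNC, with no overlap, a log2 fold change of -1.86 (SE 0.206, edgeR adjusted p = 2e-06). Rnf219, a RING-type ubiquitin ligase, had 1 at 22.2. It lay beside a long peak shared by the 3 lists, which had 17.8 in shNC, 52.0 in shFto and 37.2 in Dac51.

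Bsn and the clustered protocadherins held several shNC-only peaks. Bsn, which encodes the presynaptic scaffold Bassoon, held 4 (26.7, 4.08, 3.33 and 2.54) among 7 shNC peaks, with 4 peaks in the shFto list and 3 in the Dac51 list. The clustered protocadherins, neuronal adhesion proteins whose variable first exons stand in tandem on chromosome 18, held 11 shNC-only peaks among 42 shNC peaks (26.2%), in 7 of 18 genes. Pcdhgb1 held 3 of them (20, 3.33 and 2.83) and Pcdhb11 held 2 (24.5 and 8.52). The peaks of these 2 genes lay 29 to 929 nt from the nearest peak of another list. Over all 11 that distance reached 12532 nt, in Pcdhb5. The shFto list held 59 peaks in this family and the Dac51 list 35. The RNA of Pcdhgb1 stood at 2.02, 1.22 and 1.82 CPM in shFto and 6.38, 5.81 and 5.41 CPM in shNC (a log2 difference of -1.75 with an SE of 0.266, adjusted p = 6.48e-05). The mean counts of these 7 genes in shNC RNA were low, from 0 for Pcdha4 to 87.0 for Pcdhgb1. Pcdha4 and Pcdhgb1 share their last exons with the other genes of the alpha and gamma clusters, so their counts are uncertain, while the 5 Pcdhb genes are separate and alike in sequence. The zinc finger genes named Zfp held 26 among 477 (5.45%), against 9.0% of all shNC peaks.

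Beside the Krt17 peak and the longest Tchh peak (log10 false discovery rates of -8.48 and -8.17), the shNC-only peaks of lowest false discovery rate included peaks of low fold enrichment. The ones named next were picked after their values were seen. Gapdh, the glycolytic enzyme glyceraldehyde-3-phosphate dehydrogenase, had a peak of 1.40 at a log10 false discovery rate of -19.3, which ended 30 nt before the end of the gene span (chr6:125161882-125162031, minus strand). Hsp90aa1, an inducible cytosolic chaperone, had one of 1.37 at -17.2. Hnrnpf, a splicing factor that binds G-rich RNA, held 2 peaks, of 2.77 at -10.7 and 1.38 at -6.58, and neither Hnrnpf nor Hsp90aa1 had a peak in the other lists. Actg1, the cytoplasmic gamma actin, had one of 1.52 at -8.06. The Dac51 list held a Gapdh peak of 1.54 elsewhere in the gene.

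The 763 peaks lay in 704 genes, of which 655 held 1 and 49 held 2 or more. Protein-coding genes were 673 of the hosts, long noncoding RNA genes 25 and pseudogenes 4, and 703 of the 704 were placed on the RefSeq table. A peak elsewhere in the gene was called in the shFto or Dac51 list for 475 hosts (67.5%), and 370 held another shNC peak that was shared. The other 229 hosts had no peak in either list. Some peaks are not independent of each other: 6 overlapped another of the 763 on the same strand under a different gene name, as in Eif3j1 and its near-identical copy Eif3j2 (both 1.59) and in the overlapping Cers1 and Gdf1 (2.59 and 2.73). A further 12 overlapped a shNC peak on the opposite strand, as in Inpp5e (2.55) and Pmpca (2.51), whose ends overlap.

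Of 762 placed peaks, 384 (50.4%) had their middle in the last 20% of the gene span, against 58.5% of the shared peaks. The first 20% held 126 (16.5%), against 8.29%. The span includes introns, so this is not a position along the mature transcript, and exons and untranslated regions could not be told apart here. A first base within 500 nt of the gene start was found for 79 peaks (10.4%) against 4.19%, and a last base within 500 nt of the gene end for 11.7% against 12.3%. Among peaks of 100 nt or less, the share near the start was 8.64% for shNC-only peaks and 2.86% for shared ones, and among longer peaks 12.6% and 4.27%. By fold enrichment it was 14% for shNC-only peaks below 2 and 7.35% for those at 8 or more. No test was run on these shares, since peaks of 1 library are not replicates.

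**Figure D4:**
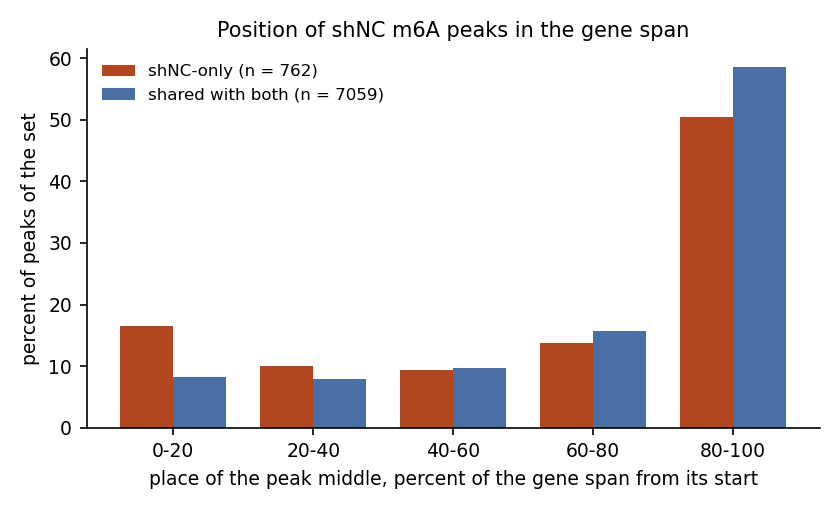
Percent of peaks (vertical axis, bars from 0) by the place of the peak's middle in the gene span, in 5 equal parts from the start of the gene (horizontal axis), for 762 shNC-only peaks and 7059 peaks shared with both other lists. The first 20% of the span holds 16.5% of the shNC-only peaks and 8.29% of the shared ones, and the last 20% holds 50.4% and 58.5%.

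Open chromatin was read from ATAC-seq, which maps DNA that a transposase can reach, in 3 libraries of shNC and 3 of shFto cells. With each library's list kept to its strongest 67427 peaks, 11.4% to 12.5% of the shNC-only m6A peaks overlapped an ATAC peak, over the 6 libraries, against 6.25% to 6.67% of the shared m6A peaks. The ranges for shFto (11.4% to 12.1%) and shNC (12.1% to 12.5%) touched. An ATAC peak of all 6 libraries covered 78 of the 763 (10.2%), against 365 of the 7087 shared m6A peaks (5.15%). Where annotated starts were on hand, 51 of 77 (66.2%) and 172 of 353 (48.7%) of these lay within 500 nt of one. Of the 78, 48 began within 500 nt of their own gene start. Examples chosen after their values were seen are P2ry1, a nucleotide receptor (fold enrichment 14.4, 90 nt from the gene start), Gab1, a docking protein of growth factor receptors (4.08), and Nampt, the enzyme of NAD salvage (2.31, 90 nt). Wtap, a subunit of the m6A writer complex, had its shNC-only peak there too (2.09, 322 nt).

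RNA-seq of shFto and shNC cells, whose labels give no treatment, was used to see whether the host genes changed with the knockdown, a readout the rule did not use. The 3 shFto and 3 shNC libraries held 11152404 to 19665589 counts. The labels do not say that they came from separate cultures, so p-values measure the spread between libraries. No RNA-seq library of Dac51-treated cells was used. Fto itself, which held no shNC-only peak, stood at 31.7, 33.5 and 28.3 CPM in shFto and at 107, 108 and 91.8 CPM in shNC, a log2 fold change of -1.72 (SE 0.0979, edgeR adjusted p = 1.6e-10). Melanocyte markers summed to 18300 to 18900 CPM in shFto and 14800 to 15700 CPM in shNC, and immune markers to 1.19 CPM or less in each library. Tyrp1, Dct and Pmel carried most of the melanocyte sum. Sox10, from the same list, leaned the other way with overlap, at 631, 579 and 758 CPM in shFto and 790, 787 and 753 CPM in shNC. Fibroblast markers summed to 2.68 to 4.42 CPM in shFto and 5.75 to 7.9 CPM in shNC.

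Of the 704 hosts, 660 passed the filter on low counts. At an edgeR adjusted p under 0.05, 123 were higher in shFto (18.6%) and 121 lower (18.3%), together 37% of those tested. Over all 11718 genes tested 32.8% were called, 15.9% higher and 16.9% lower. The median log2 fold change was -0.011 over the hosts and -0.003 over all genes. The libraries of the 2 groups did not overlap for 316 hosts (47.9%), and for 45.1% of all genes. Of 439 tested hosts with a peak below 4, 43.1% were called, with a median of 1050 counts in shNC, against 19.7% of 152 tested hosts with a peak at 8 or more, with a median of 68.3. Among hosts with no peak in the other lists, 29 of 193 were higher and 38 lower (34.7% called). Without the first shFto library the calls among all hosts fell to 75 higher and 80 lower.

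The largest rises were taken among called hosts that averaged at least 10 CPM. Nr4a3, an orphan nuclear receptor of the early response class, stood at 261, 237 and 293 CPM in shFto and 76.2, 78.7 and 73.2 CPM in shNC, with no overlap, a log2 fold change of 1.79 (SE 0.0881, adjusted p = 1.82e-11). Its shNC-only peak had a fold enrichment of 1.25, in 2 blocks that began 4001 nt into the gene, and the other shNC peak, 2906 nt before the gene end, was called in all 3 lists. Smad7, the inhibitory SMAD that limits TGF-beta signalling, stood at 24.9, 23.5 and 33.2 CPM against 13.7, 15 and 11.2 CPM (log2 fold change 1.03, SE 0.149, adjusted p = 3.82e-05). Its shNC-only peak (3.95) lay between a shared shNC peak and a shFto peak of 2.18 a little further on. Mitf, the master transcription factor of melanocytes, stood at 596, 611 and 558 CPM against 371, 412 and 349 CPM (log2 fold change 0.64, SE 0.0848, adjusted p = 1.53e-05). It held a weak shNC-only peak of 1.5 between a pair of strong peaks that all 3 lists called, and another such peak stood near the gene end. Of the 16 tested genes of the melanocyte lineage list, in which Mitf was the single host of 9 peak-bearing genes, 10 were higher and 0 lower. Over all tested genes 15.9% were higher and 16.9% lower.

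The other rises had smaller levels or smaller folds. Etv5, an ETS transcription factor downstream of MAPK signalling, had a shNC-only peak of 13.3 in 2 blocks, which began 3658 nt from the gene start, and its RNA stood at 16 to 17.9 CPM in shFto and 7.73 to 8.96 CPM in shNC (log2 fold change 1.03). Wfikkn2, a secreted binder of growth and differentiation factors, had a peak of 10.0 beside 2 that other lists also called, and rose from 4.59 to 7.37 CPM in shNC to 16.1 to 17.7 CPM in shFto (1.52). Cd109, a membrane-anchored protein that binds TGF-beta, rose by a log2 fold change of 0.76, Actr2, a subunit of the actin-branching Arp2/3 complex, by 0.69, and Arfgef1, an exchange factor for ARF GTPases, by 0.66. Their shNC-only peaks had 1.96, 1.67 and 1.95.

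Among the largest falls were Nrp2, Fzd2 and Egln1. Nrp2, a co-receptor for semaphorins and VEGF, stood at 127, 130 and 119 CPM in shFto and 277, 268 and 241 CPM in shNC (log2 fold change -1.06, SE 0.0813, adjusted p = 1.12e-08). Its shNC-only peak of 1.97 lay beyond a much stronger one that had 22.3 in shNC, 30.6 in shFto and 29.9 in Dac51. Fzd2, a WNT receptor, stood at 4.10, 5.67 and 6.58 CPM against 14.9, 15.4 and 14 CPM (log2 fold change -1.44, SE 0.18, adjusted p = 7.68e-06), and its shNC-only peak had 2.92. Egln1, the prolyl hydroxylase that marks HIF for degradation, stood at 83.8, 105 and 103 CPM against 160, 188 and 178 CPM (log2 fold change -0.85, SE 0.0932, adjusted p = 1.66e-06). Its shNC-only peak was weak (1.39), and a shared one in the same gene had 6.85.

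Rpph1, the RNA subunit of ribonuclease P, had the largest fall among called hosts averaging at least 10 CPM, from 150, 136 and 69.4 CPM in shNC to 33.2, 42.6 and 39.8 CPM in shFto (log2 fold change -1.63). The third shNC library stood well below the other ones. Its shNC-only peak of 1.44 began at the gene start, and no other peak was called in the gene. Ahnak, a very large scaffold protein, held 2 shNC-only peaks (2.07 and 2.59) among many shared ones and fell by 0.89 on the log2 scale. Vav2, a guanine nucleotide exchange factor, fell by 0.87, Fam129b, a protein of cell junctions, by 0.81, and the connexin Gjc3 by 0.81. The plot of host RNA by library shows that the 2 groups were apart for all 16 genes, which the rule for naming them required.

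**Figure D5:**
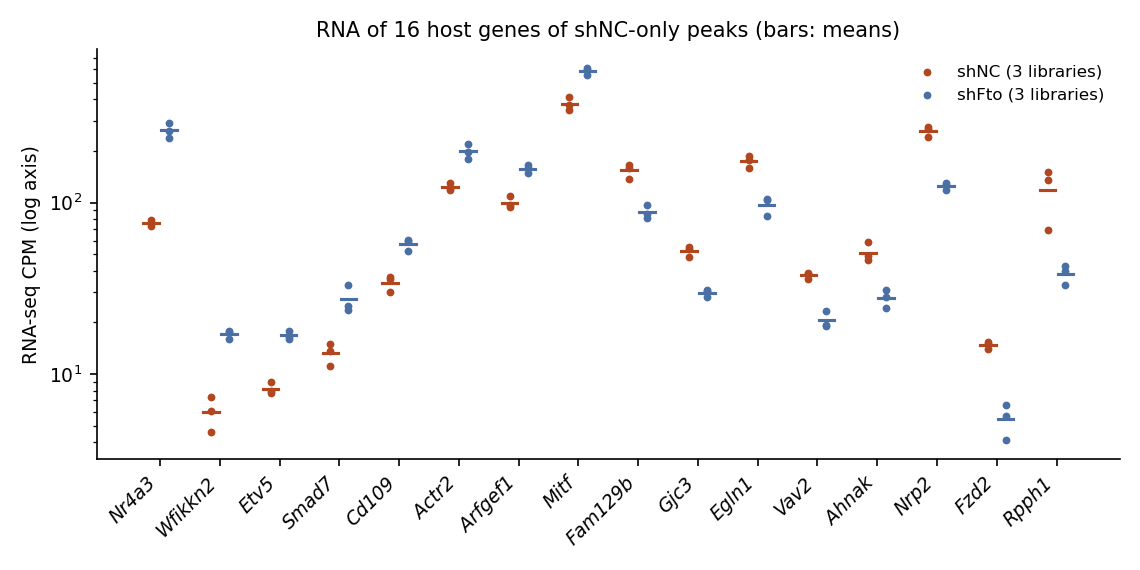
RNA level in CPM (log axis) of host genes of shNC-only peaks. Each of the 3 shNC and 3 shFto libraries has 1 point, and a bar stands at each mean. The genes are the 8 largest rises and 8 largest falls among called hosts that averaged at least 10 CPM and had no overlap. The shFto points lie above the shNC points from Nr4a3 to Mitf and below them from Fam129b to Rpph1, where the shNC points spread from 69.4 to 150 CPM.

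Pathway lists, gathered with earlier results of these data known, show where the shNC-only peaks fell. Of all 5305 genes with a shNC peak, 704 (13.3%) held a shNC-only one. For the RNA counts of each list, the shares over all 11718 tested genes were 15.9% higher in shFto and 16.9% lower. The m6A machinery list had 2 of its 12 peak-bearing genes among the hosts. Wtap, with the peak near its gene start described above, had 3 further shNC peaks, all shared, and its RNA stood at 75.4, 78.1 and 74.2 CPM in shFto and 71.1, 68.3 and 64.8 CPM in shNC, a difference that missed the threshold (adjusted p = 0.156). The reader Igf2bp3 had a single peak of 11.1 and no peak in the other lists, and its RNA did not pass either (adjusted p = 0.394). Of the list's 21 tested genes, 3 were higher and 5 lower.

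Glycolysis genes held shNC-only peaks in 3 of 10 peak-bearing genes. All 3 fell: Gapdh from 3760, 3520 and 4590 CPM in shNC to 2570, 2120 and 3190 CPM in shFto (log2 fold change -0.59, adjusted p = 0.00123), Hk1, the first enzyme of the pathway, from 242, 248 and 240 CPM to 151, 168 and 165 CPM (-0.59, adjusted p = 1.33e-05), and Tpi1, triose phosphate isomerase, with overlapping libraries (-0.42, adjusted p = 0.0111). The Tpi1 call was lost with DESeq2 (adjusted p = 0.107), without the first shFto library (0.0607) and without the third shNC library (0.084). The peaks of Gapdh, Hk1 and Tpi1 had fold enrichments of 1.40, 1.21 and 1.06, the last being the lowest of all 763. Of the 27 glycolysis genes tested, 15 were lower and 4 higher, with a median log2 fold change of -0.42.

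WNT, Notch, Hippo and TGF-beta genes held shNC-only peaks in 6 of 29 peak-bearing genes: the receptors Fzd2, Fzd7 and Lrp6, and Smad2, Smad3 and Smad7. All 6 are named, after their values were seen. Smad3, a signal-carrying SMAD of TGF-beta, stood at 51.0, 50.7 and 54.4 CPM in shFto and 40.5, 41.4 and 33.2 CPM in shNC (log2 fold change 0.44, adjusted p = 0.00268). Smad2, which carries the same signal, was higher with a log2 fold change of 0.29 (adjusted p = 0.0204), and that call was lost without either of 2 shFto libraries or 1 shNC library (adjusted p from 0.0763 to 0.0856). Fzd7 fell by 0.23 on the log2 scale (adjusted p = 0.0305), and Lrp6, the WNT co-receptor, had -0.05 (adjusted p = 0.669). Over the list's 39 tested genes, 14 were higher and 5 lower.

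In the list of receptor tyrosine kinases, RAS and MAPK, 3 of 22 peak-bearing genes were hosts. Of its 30 tested genes, 11 were higher and 4 lower. Igf1r, the receptor of insulin-like growth factor, had a shNC-only peak of 20 beside 4 shared ones, the RAS inhibitor Nf1 one of 2.06, and the kinase Map3k1 one of 2.44. The nearest peak of another list lay 59 nt away for Nf1 (a Dac51 peak of 10.9), 507 nt for Map3k1 and 1077 nt for Igf1r. Nf1 rose (log2 fold change 0.34, adjusted p = 0.0118), while Igf1r (-0.21, adjusted p = 0.231) and Map3k1 (0.04, adjusted p = 0.784) did not pass. In the PI3K list the insulin receptor substrates Irs1 and Irs2 were hosts, with peaks of 3.54 and 21.1. These lay 418 and 119 nt from the nearest peak of another list. Of that list's 24 tested genes, 6 were higher and 7 lower. Irs2 fell by 0.43 on the log2 scale (adjusted p = 0.0442), a call lost with the replicate block (adjusted p = 0.0698), with library totals (0.0703) and without any of 4 libraries (0.106 to 0.247), and Irs1 had -0.33 (adjusted p = 0.12).

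Chromatin genes held shNC-only peaks in 4 of 45 peak-bearing genes. Of the list's 60 tested genes, 8 were higher and 18 lower. Chd7, a nucleosome remodeller, had a peak of 4.45 and fell from 43.7, 52.5 and 43.3 CPM in shNC to 29.3, 27.1 and 31.8 CPM in shFto (log2 fold change -0.66, adjusted p = 0.000147). Tet1, which oxidises 5-methylcytosine, had one of 2.84 in 2 blocks, and its RNA was lower (log2 fold change -0.78, adjusted p = 0.019, but 0.146 without the first shFto library and 0.0758 without the second shNC library). Its relative Tet2 (2.03) and the remodeller Chd2 (1.49) also held a peak each, and their RNA had adjusted p = 0.217 and 0.965. The nearest peak of another list lay 89 nt away for Chd7, 119 nt for Tet2, 1767 nt for Tet1 and 15929 nt for Chd2. In the p53 list the hosts were Mdm2, the ubiquitin ligase that degrades p53 (peak 1.81), and the p53 target Perp (peak 14.4), which is also an adhesion gene of epithelia. Mdm2 stood at 178, 177 and 168 CPM in shFto and 133, 135 and 124 CPM in shNC (log2 fold change 0.41, adjusted p = 0.000437), and Perp had 10 counts over the 6 libraries and was not tested. Of the 16 tested genes of the p53 list, 5 were higher and 1 lower.

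Lists of immune interest had 1 host each. Of 21 tested interferon and checkpoint genes, 5 were higher and 4 lower, and of 16 tested MHC class I genes, 8 were higher and 1 lower. Ifnar1, a chain of the type I interferon receptor, had a peak of 7.78, just beyond a shared one of 4.63, and its RNA rose from 65.6, 64.1 and 63.4 CPM in shNC to 79.1, 79.4 and 77.2 CPM in shFto (log2 fold change 0.29, adjusted p = 0.01). Psmb10, a subunit of the immunoproteasome, had a peak of 13.3 at its gene start and no peak in the other lists, and its RNA did not pass (log2 fold change -0.25, adjusted p = 0.0974). The 13 peak-bearing AP-1 and C/EBP genes, the 7 of the ATF4 stress response and the 6 of collagens, laminins and matrix held no shNC-only peak. Over all genes with a shNC peak 13.3% held one, and each of these lists is too small to set apart from that share. The cell cycle list had Mki67 as its single host of 9, with a peak of 1.21 among 8 shared ones.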

How the data were processed

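The authors deposited 1 m6A peak list per condition, named for exomePeak, with blocks on mm10, a ratio (fold enrichment), a p-value, and scores that are the log10 of the p-value and of the false discovery rate, per the file headers. The deposited ATAC peak lists give a fold and a −log10 q per peak, in a narrowPeak layout with no header. The authors' RNA-seq table holds raw read counts per gene symbol. MACS2 2.1.3, STAR 2.7.0f, Picard, deepTools, Trim Galore 0.6.0 and Bowtie2 2.3.5 are listed, with no role, per the submitters' processing notes. The counter, its strand setting and the peak threshold are not given in the sources used here.

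Peaks were compared by 1 base of overlap of blocks on the same strand, with Python 3.11.15 and pandas 2.3.3. Gene spans and starts came from RefSeq tables of GRCm38.p6. Counts were fitted with edgeR 4.0.16 (quasi-likelihood test, TMM scaling, filterByExpr, Benjamini-Hochberg over 11718 genes, threshold 0.05) and DESeq2 1.42.0 as an alternative. The edgeR fit and the overlap step were tested on simulated data. The members and gene lists were chosen with earlier results of these data known. Genes were named by a rule: the 12 peaks of largest fold, the 6 hosts with most peaks, the 8 largest rises and falls among called hosts of at least 10 CPM on average, without overlap or a predicted gene's symbol, and up to 4 hosts a list by fold, with Fto. ATAC overlaps, length classes and the hair gene list were added after seeing the data. T cell libraries were not used.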

Additional observations from a re-analysis of the deposited data

How the results depend on the processing

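The number of shNC-only peaks lay between 687 (with peaks within 100 bp also counted as shared) and 1028 (with each list kept to the length of the shortest), apart from the stricter shNC thresholds, which gave 244 at a log10 false discovery rate of -3 or less and 295 at a fold of 4 or more, with fewer peaks entering. With GGACT alone searched in place of the 18 words, 0.0% of the 8 starts matched. Position along transcripts and the motif over whole peaks were planned but were not run, since no genome or transcript models were used here.

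Scaling by library totals moved the median log2 fold change to 0.045 for hosts and 0.053 for all genes, and testing without a filter on low counts moved the latter to 0.006. Under library totals 154 hosts were higher and 103 lower. The median of all genes moved up with that of the hosts, so this move was not particular to the hosts. Restricting to hosts with no peak in the other lists gave 29 higher, 38 lower and a median of -0.037, from fewer genes. Leaving out each RNA library in turn gave 75 to 137 hosts higher and 80 to 155 lower, with host medians from -0.031 to 0.014. Over all genes it gave 1219 to 2113 higher and 1237 to 2290 lower, with medians from -0.008 to 0.008. The lowest counts came without the first shFto library (155 host calls, against 244), and the cause was not tested. With the replicate block 243 hosts were called, 230 of them among the 244. Libraries of the same number were not paired by the data: their deviations correlated by 0.014, 0.0365 and -0.017. Of 605 values of 55 named genes under these alternatives, 36 (11 genes) lost the call, 11 (6 genes) gained one and 0 reversed. With 1 m6A library a condition, a peak missed by the caller for lack of reads and a peak that was absent cannot be told apart.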
